A study of Saccharomyces cerevisiae with 4 samples.

Results

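The probes described here lie close to the ends of the yeast chromosomes, but not at the very ends. On each nuclear arm, probes measured on 2 or more arrays were put in order by the number in the ORF name, which counts upward from the centromere. Ranks 6 to 20 from the end were taken, 15 on each of 30 arms, with both arms of chromosome XI left out. Of these 450 probes, 7 of the COS, PAU and Ty families were left out, namely COS4, PAU4, PAU20 and 4 Ty ORFs. The remaining 443 are part of 6210 probes on the array, of which 6157 were measured on 2 or more arrays. Among the 443, 422 had a value on all 4 arrays, 14 on 3 and 7 on 2. A rank is a place in the order of probes and not a distance in bases.

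The study compared the 5A mutant of budding yeast with control cells containing the WT CTD, the repeated C-terminal domain of the largest RNA polymerase II subunit. In the 5A mutant, 5 alanines separate the pairs of heptad repeats, and the altered gene was brought into strain Z26 on a LEU2-linked plasmid and exchanged for the WT copy by plasmid shuffle. RNA came from log phase cultures in rich YPD medium, and 4 RNA replicates of each strain were hybridized on 4 spotted oligonucleotide arrays. The 5A mutant was labelled with Cy5 and the control with Cy3 on every array, so a dye effect of a probe and its expression ratio cannot be told apart.

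Each value is a ratio to base 2 with the 5A mutant in the numerator, so that -1 stands for 2-fold lower in the mutant. The values carry no note of base or direction, and both were settled from the dye labels and from counts: among 5955 probes with 4 values, 325 were at or above 1 and 493 at or below -1. Both counts match the study's own split at that cut-off only with the sign read this way. The 4 arrays had medians between -0.010 and -0.0034 and standard deviations over probes between 0.735 and 0.973. Array 2 resembled the others least, with r between 0.637 and 0.670 over the 424 to 440 probes of these ranks measured on both arrays, against 0.843 to 0.861 among arrays 1, 3 and 4. These probes share the arrays and the normalization and are not independent. The sources do not say whether the replicates of a strain were grown apart, so the spread between arrays may be technical only. The probe of RPO21, the gene that encodes the CTD, was at -5.97, -4.64, -5.67 and -6.40 on arrays 1 to 4, although where on the gene it lies is not given here.

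Genes next to yeast telomeres are held down by the Sir proteins, which spread inward from the chromosome end over histones that have lost their acetyl groups. Further inward lie domains in which other histone deacetylases, Hda1 among them, act together with the repressor Tup1. The regions between hold many gene families that cells use only on some diets, such as sugar, vitamin, phosphate and metal uptake genes, and many of these have copies on several chromosomes. The ranks were set apart with the same ratios already known, so every value of these probes is a description, and no test was made of the 443 probes against the others.

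The low ratios of the chromosome ends reached into the first of these ranks and were not seen in the last of them. Ranks 1 to 5, with the same families left out, had a median of -1.26 over 126 probes. The median was -0.39 in ranks 6 to 10 (145 probes), -0.049 in ranks 11 to 15 (148 probes) and 0.011 in ranks 16 to 20 (150 probes). Ranks 21 to 40 had a median of 0.047 over 587 probes. At the outer edge of the ranks, the median was -1.02 ± 0.28 at rank 5 and -0.58 ± 0.22 at rank 6 (SD of the array medians, n = 4), and rank 6 was nearer to 0 on each array. At the inner edge it was 0.045 at rank 20 and 0.11 at rank 21.

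**Figure D1:**
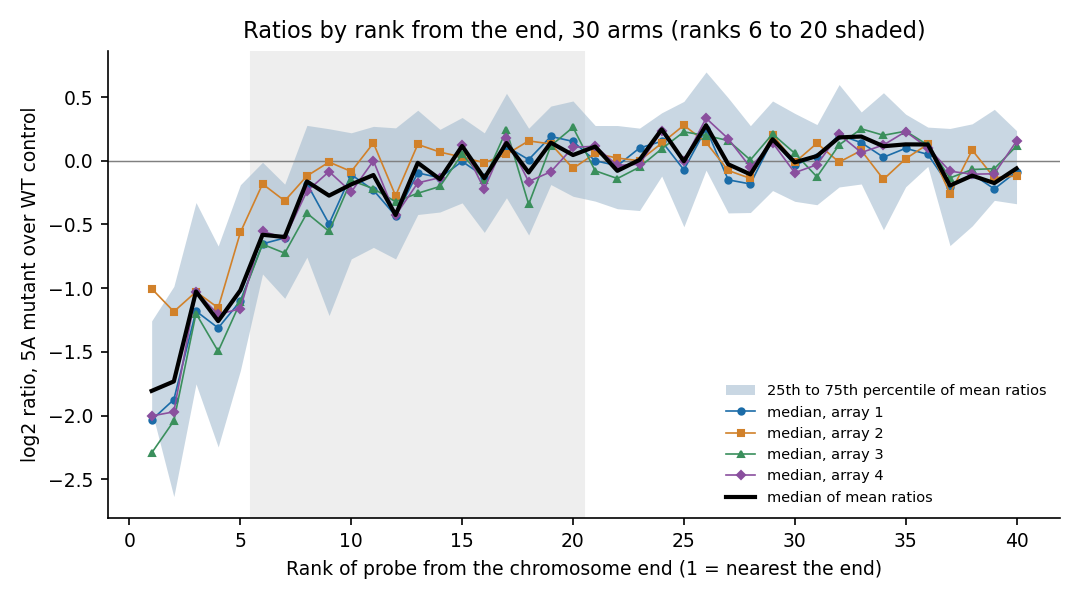
Median log2 ratio of the 5A mutant over the control (vertical axis) against the rank of the probe from the chromosome end (horizontal axis) over 30 arms, on each array (coloured points) and for the mean of the arrays (black line), with the range from the 25th to the 75th percentile of mean ratios in blue. The black line climbs unevenly from -1.81 at rank 1 to -0.58 at rank 6 and -0.11 at rank 11. It drops to -0.43 at rank 12 and lies between -0.19 and 0.28 from rank 13 on.

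On the separate arrays, ranks 6 to 10 had medians of -0.52, -0.15, -0.56 and -0.45, all below 0, with array 2 nearest to 0. Ranks 11 to 15 were at -0.19, 0.034, -0.19 and -0.098, with array 2 on the other side of 0. Ranks 16 to 20 lay between -0.0016 and 0.064. Probes at or below -1 numbered 35 in ranks 6 to 10, 13 in ranks 11 to 15 and 13 in ranks 16 to 20. Probes at or above 1 numbered 11, 12 and 6.

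Over all 443 probes the median was -0.14, and on arrays 1 to 4 it was -0.13, -0.0015, -0.20 and -0.15. The 5370 nuclear probes outside these ranks and outside chromosome XI had a median of -0.033. The difference between both sets on an array averaged -0.088 ± 0.094 (SD, n = 4), which is no larger than its spread, and array 2 had the opposite sign at 0.047. The standard deviation over probes was 0.82, against 0.69 for the others and 0.79 for all tested probes. It was 1.04 in ranks 1 to 5, 0.95 in ranks 6 to 10, 0.78 in ranks 11 to 15 and 0.67 in ranks 16 to 20. Probes at or below -1 made up 13.8% (61 of 443), where 8.66% of all tested probes were that low. Probes at or above 1 made up 6.55% (29 of 443), beside 5.75% of all tested probes and 3.33% of the other nuclear probes outside chromosome XI. A probe was called changed when its adjusted p in limma, fitted over all 6157 probes, was under 0.05. By this rule 125 were called lower and 79 higher, or 28.2% and 17.8%, where 20.7% and 19.8% of all tested probes were called, 40.5% in either direction. Of the other nuclear probes outside chromosome XI, 21.1% were called lower and 16.5% higher. Means below 0 were found for 251 probes or 56.7%, beside 50.4% of all tested probes and 52.2% of the other nuclear probes outside chromosome XI. Values below 0 on every measured array were found for 148 probes and above 0 for 106, and over all tested probes these shares were 28.2% and 27%. Since the ranks were chosen on this contrast, nothing is read from these shares.

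Probes for ORFs without a gene name had a lower median than those for named genes, though not in every rank. The 341 probes matched to a named gene in the RefSeq R64 gene table had a median of -0.048, the 68 matched to a gene without a name -0.35, and the 34 with no match -0.53. The same order did not hold among the 5370 other nuclear probes outside chromosome XI. Their medians were -0.0080 for 4469 named genes, -0.30 for 493 genes without a name and -0.081 for 408 without a match. These probes include ranks 1 to 5 and the left-out families, so they are not only the interior of the chromosomes. In ranks 6 to 10, 93 probes for named genes had a median of -0.21 and the 52 others -0.56, and in ranks 11 to 15 the medians were -0.019 for 116 and -0.26 for 32. Ranks 16 to 20 went the other way, with 0.0062 for 132 named genes and 0.19 for the 18 others. The 409 probes of these ranks with a match had a median of -0.12. When the arms were ranked again over matched probes only, ranks 6 to 20 held a different set, of 446 probes. The median of that set differed from that of the other probes, matched or not, by -0.026. Left arms had a median of -0.22 and right arms -0.015. Genes transcribed toward the telomere had a median of -0.056, and those transcribed toward the centromere -0.17.

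Genes of phosphate uptake and of vitamin synthesis were among the lowest probes. PHO89, which encodes a sodium-coupled phosphate transporter of the plasma membrane, was at -2.88, -3.58, -4.07 and -3.05 on arrays 1 to 4. Its mean of -3.39 ± 0.54 (SD, n = 4) was the lowest of the 443 probes, at rank 7 of the right arm of chromosome II. PHO84, the high-affinity phosphate transporter, was at -3.29, -1.30, -3.67 and -2.90 at rank 11 of the left arm of chromosome XIII, with a mean of -2.79 ± 1.04. Array 2 held the value nearest to 0. GIT1, a transporter of glycerophosphoinositol that is used as a source of phosphate, was at -1.27, -1.77, -2.17 and -2.04 at rank 11 of the right arm of chromosome III, and all 4 values lay below -1. PHO13, a phosphatase not known for uptake, was not called, with a mean of -0.17 ± 0.26. Of the 4 listed phosphate genes in these ranks 3 were thus called lower and none higher, with a median of -2.30, in a list that was drawn up after these values were seen. The 14 listed phosphate genes elsewhere had a median of -0.25, and 1 of them was called lower and 2 higher. For listed genes, elsewhere leaves out chromosome XI and ranks 1 to 5, here and in the groups below. Ranks 1 to 5 held 2 further listed phosphate genes. PHO89, PHO84 and GIT1 lie on 3 different chromosomes. Next to PHO89, MAL33 was at -0.32 and PCA1 at 0.29. Next to PHO84, TUB3 was at 0.28 and YML122C, with 3 values, at -1.08 ± 1.27, and none of these 4 neighbours was called. GIT1 stood between YCR099C, lower at -0.73 ± 0.29, and HMRA1, called higher.

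Among 10 genes of vitamin and cofactor synthesis, 8 were called lower and 1 higher, with a median of -1.48. The 27 listed genes elsewhere had a median of -0.083, with 8 called lower and 5 higher. The low genes came largely from matching blocks on the left arms of chromosomes VI and XIV, each with a SNO, a SNZ and a THI gene. SNZ and SNO proteins are paired subunits for vitamin B6 synthesis, and THI5 and THI12 make the pyrimidine part of thiamine. On chromosome VI, SNO3 was at -2.78, -2.28, -2.37 and -3.07 on arrays 1 to 4, a mean of -2.63 ± 0.37. On chromosome XIV, SNO2 was at -3.04, -2.28, -2.57 and -3.75, a mean of -2.91 ± 0.64. No array of either gene was above -2. The SNZ genes were nearer to 0 than their SNO neighbours, SNZ3 at -1.39 ± 0.24 and SNZ2 at -1.80 ± 0.27. THI5 was at -1.78 ± 0.43 and THI12 at -1.58 ± 0.46. The copies in each family are nearly identical in sequence, so a probe may also have read RNA of its relatives, and the values of these copies are not separate evidence. SNO1 and SNZ1, the copies in the interior of chromosome XIII, were at 0.64 ± 0.83 and 0.79 ± 0.84 and were not called. THI13, at rank 5 of the left arm of chromosome IV and just outside the ranks, was lower, at -1.26 ± 0.53.

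Outside these blocks, both listed genes in these ranks for NAD synthesis from tryptophan were lower. BNA6 was at -1.58, -1.30, -1.03 and -1.20, a mean of -1.28 ± 0.23, and BNA4 was at -1.36, -0.70, -1.54 and -1.15, a mean of -1.19 ± 0.36. The biotin genes stood apart from them: BIO3, an aminotransferase of biotin synthesis, was higher at 0.83, 1.13, 1.47 and 0.62, with a mean of 1.02 ± 0.37, while BIO2, the biotin synthase, was at -0.31 ± 0.25 and not called.

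**Figure D2:**
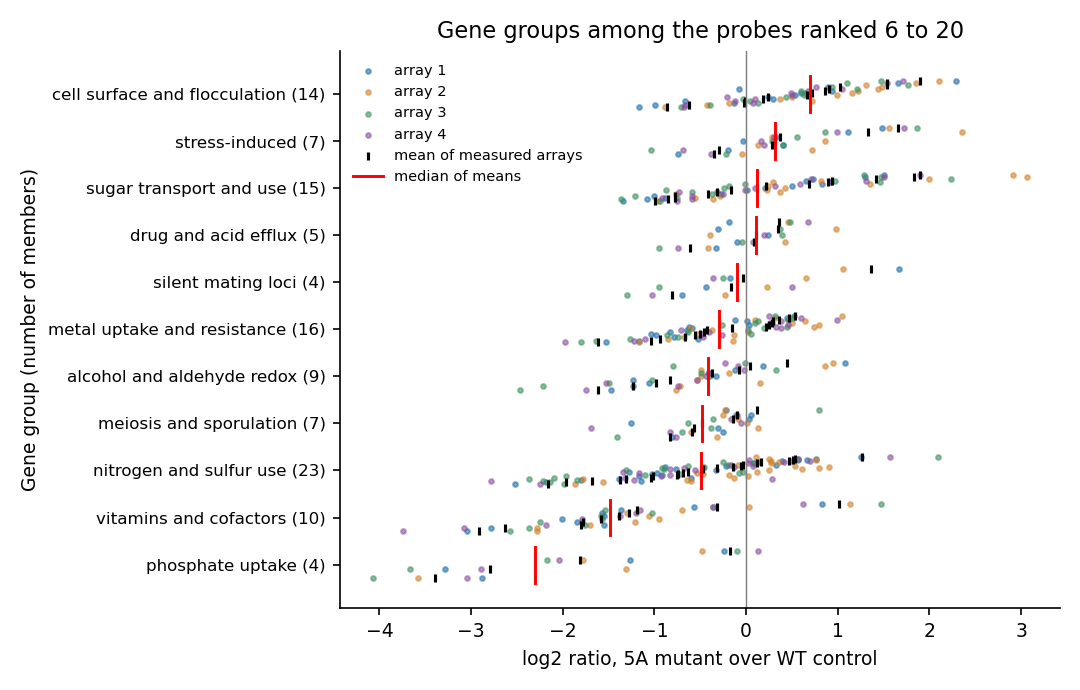
Log2 ratios of the 5A mutant over the control (horizontal axis) for the listed genes in ranks 6 to 20, by gene group (vertical axis, number of genes in brackets), with each array as a coloured point, each gene's mean as a black tick and the group's median as a red line. The medians run from -2.30 for the 4 phosphate genes and -1.48 for the 10 vitamin genes to 0.69 for the 14 cell surface genes.

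Genes for the use of nitrogen and sulfur were mixed, with 10 of 23 called lower and 4 higher and a median of -0.49. The 21 listed genes elsewhere had a median of -0.10, with 2 called lower and 5 higher. CHA1, the enzyme that breaks down serine and threonine, was at -2.52, -1.87, -1.99 and -2.25, a mean of -2.16 ± 0.29, and was the lowest probe of the left arm of chromosome III. JLP1, which releases sulfite from sulfonates, was at -2.18, -1.56 and -2.14 on arrays 1 to 3 and had no value on array 4. Near it on the left arm of chromosome XII, MHT1 and MMP1, an enzyme and a permease for S-methylmethionine, were lower at -1.38 ± 0.56 and -1.04 ± 0.86, as was the cysteine transporter YCT1 at -1.01 ± 0.82. For YCT1, array 2 lay on the other side of 0, at 0.022. SAM4, a methyltransferase that acts on S-adenosylmethionine, was higher instead, at 1.26, 0.11, 2.09 and 1.57, a mean of 1.26 ± 0.84, a call lost without array 1, 3 or 4. Its neighbour SAM3, the S-adenosylmethionine permease, was at -0.059 ± 0.49 and not called. Also higher were the sulfate permease SUL1 at 0.51 ± 0.33 and the peptide transporters OPT1 at 0.47 ± 0.18 and OPT2 at 0.54 ± 0.21.

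The allantoin cluster on the right arm of chromosome IX, which lets cells live on allantoin as a nitrogen source, did not move as a block. DAL2, the allantoicase, was at -1.14, -0.60, -2.21 and -2.78 and lower on every array, with a mean of -1.68 ± 0.99. DCG1, next to it, was at -1.39, -1.78, -2.37 and 0.28, called lower with array 4 on the other side of 0. DAL1, the allantoinase, was lower at -0.74 ± 0.28 on 3 arrays. DAL3, DAL7 and the allantoin permease DAL4 were not called, at -0.49 ± 0.64, -0.033 ± 0.24 and 0.16 ± 0.30.

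Sugar genes went both ways, with 4 of 15 called lower and 6 higher and a median of 0.12. At the 2-fold cut-off, 3 were at or above 1 and 0 at or below -1. The 22 listed sugar genes elsewhere had a median of 0.051, with 6 called lower and 4 higher. A further 10 listed sugar genes lay in ranks 1 to 5 and are not counted there. HXT17 and HXT13, members of the hexose transporter family, were among the highest probes. HXT17 was at 1.51, 2.91, 1.28 and 1.90, a mean of 1.90 ± 0.72, and HXT13 was at 1.30, 3.06, 1.47 and 1.50, a mean of 1.83 ± 0.83. For both genes array 2 held the highest value, and no array was below 1. These copies are also close in sequence to HXT15 and HXT16 at ranks 4 and 3 of other arms, which were at 1.81 ± 0.79 and 0.75 ± 0.045, so their probes may share signal. HXT8 was higher at 0.90 ± 0.48, while HXT9 and HXT11 were not called, at 0.12 ± 0.28 and 0.22 ± 0.29. STL1, the glycerol symporter, was at 0.73, 2.00, 2.24 and 0.71, a mean of 1.42 ± 0.81, with arrays 1 and 4 at about a level and arrays 2 and 3 far above them.

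The genes that split disaccharides were divided. SUC2, the invertase that splits sucrose, was lower at -1.35, -0.96, -0.93 and -0.75, a mean of -0.998 ± 0.25. Of the isomaltases, IMA2 and IMA3 were lower at -0.85 ± 0.45 and -0.77 ± 0.42, and IMA1 and IMA5 were higher at 0.69 ± 0.57 and 0.94 ± 0.28. For IMA1, array 3 lay on the other side of 0, at -0.016. At the maltose locus of chromosome VII, the activator gene MAL13 was lower at -0.78 ± 0.16, and the permease gene MAL11 was at -0.16 ± 0.49 and not called.

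Cell surface genes had the highest median of the groups, 0.69, with 8 of 14 called higher and 2 lower. The 23 listed genes elsewhere also had a median above 0, 0.38, with 8 called higher and 4 lower. HPF1, a wall mannoprotein known for reducing haze in wine, was at 2.29, 2.10, 1.47 and 1.71, a mean of 1.89 ± 0.37. CSS1, a gene of the same family by sequence, was at 1.66, 1.85, 1.10 and 1.54, a mean of 1.54 ± 0.32, while CSS3 was at 0.24 ± 0.32 and not called. The flocculins, which make cells stick together, were all higher by less than 2-fold: FLO1 was at 0.66 ± 0.23, FLO5 at 0.72 ± 0.30 and FLO9 at 0.86 ± 0.28, on 3 different arms. Their repeated sequences are alike, so the 3 probes may not be independent readings. DAN1, a wall protein of anaerobic cells, was at 1.31 and 1.77 on arrays 2 and 3 and had no value on the other arrays. BGL2, a glucanase of the wall, was higher at 1.02 ± 0.32, whereas SCW4, another wall enzyme, was lower at -1.17, -0.89, -0.71 and -0.68, a mean of -0.86 ± 0.22. EGT2, which acts in cell separation, was lower at -0.62 ± 0.28.

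Of the metal genes, 5 of 16 were called lower and 2 higher, with a median of -0.29. The 18 listed genes elsewhere had a median of -0.0036, with 3 called lower and 1 higher, and 3 more in ranks 1 to 5 are not counted there. ARR1, the regulator of arsenic resistance, was at -1.53, -1.17, -1.80 and -1.98, a mean of -1.62 ± 0.35. The ferric reductase gene FRE4 was lower at -1.04 ± 0.64, the iron transporter FET4 at -0.94 ± 0.32, and FIT1, a wall protein that holds iron siderophores, at -0.67 ± 0.14. FIT2, FIT3, FRE3 and FRE5, which are neighbours on the right arm of chromosome XV, were not called, with means between -0.43 and 0.29. The siderophore transporters ARN1, SIT1 and ENB1 were not called either. FRE6 and the zinc transporter ZRT1 were higher at 0.47 ± 0.12 and 0.53 ± 0.36. The call of ZRT1 was lost when any array was left out.

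Redox enzymes for alcohols and aldehydes were lower or not called, 5 and 4 of 9, with a median of -0.41. The 16 listed genes elsewhere had a median of -0.28, with 7 called lower and 2 higher, and 4 more in ranks 1 to 5 are not counted there. BDH2 and BDH1, a pair of butanediol dehydrogenases side by side on the left arm of chromosome I, were lower at -1.61 ± 0.70 and -0.98 ± 0.79. GDH3, the glutamate dehydrogenase next to them and in no list, was lower as well, at -1.84 ± 0.73. Array 2 was nearest to 0 for all 3 genes, and for BDH1 it lay on the other side of 0, at 0.16. The aryl-alcohol dehydrogenase genes AAD14, AAD4 and AAD6 were lower at -1.23 ± 0.70, -0.83 ± 0.35 and -0.41 ± 0.073. Their relatives nearer to the ends spanned a wider range, AAD3 and AAD15 at -2.40 ± 0.49 (3 arrays) and -2.29 ± 0.47, and AAD10 at 0.36 ± 0.016 (3 arrays). At the other end, GRE2, a methylglyoxal reductase, was at 1.08, 0.95, -0.012 and -0.23 and not called.

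The remaining groups were small. Of 7 meiotic genes, ISC10 and the recombinase gene DMC1 were lower at -0.83 ± 0.45 and -0.59 ± 0.25, and the other 5 were not called. The call of ISC10 was lost without array 1. Of 55 meiotic genes elsewhere, 18 were called lower and 5 higher. Of 7 stress genes, HSP31, a glyoxalase and chaperone of the same family as human PARK7, was higher at 1.48, 1.56, 1.87 and 1.72, a mean of 1.66 ± 0.17, the smallest spread among the 12 highest probes with 4 values. DAK2, which phosphorylates dihydroxyacetone, was higher at 1.11, 2.36, 0.86 and 0.99, a mean of 1.33 ± 0.70. GTT1, GTT2, HYR1, GDB1 and GRX4 were not called. Of 52 stress genes elsewhere, 7 were called lower and 5 higher. Of 5 drug and acid exporters, YOR1 was lower at -0.61 ± 0.29, a call lost without array 3 or 4, and the other 4 were not called. Of 23 such genes elsewhere, 5 were called lower and 8 higher.

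The silent mating loci on chromosome III, the textbook targets of Sir silencing, were not uniformly shifted. HMLALPHA2 was lower at -0.70, -0.23, -1.30 and -1.03, a mean of -0.81 ± 0.46, a call lost without array 1, 3 or 4, and HMLALPHA1 was at -0.44, 0.22, -0.95 and 0.50 and not called. HMRA1 was at 1.67 and 1.06 on arrays 1 and 2, was called higher and had no value on the other arrays, and HMRA2 was at -0.032 ± 0.47. The silent genes share their sequence with genes at the expressed MAT locus, so these probes may also read MAT.

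Other genes at the extremes belonged to no list. YLR462W, an ORF without a gene name at rank 6 of the right arm of chromosome XII, was at -2.93, -2.28, -3.06 and -3.17, a mean of -2.86 ± 0.40. DFP4 was at -2.71, -0.71, -3.13 and -2.70, with array 2 far from the others. IPA1, an essential gene for cleavage and polyadenylation of mRNA, was at -2.06, -1.31, -2.84 and -2.23, a mean of -2.11 ± 0.63, on the right arm of chromosome X. Its neighbour HIR3 was at 0.41 ± 0.14. YBL100C, at rank 16 of the left arm of chromosome II, was at -2.88, -1.83, -1.92 and -3.40, while ATP1 at rank 17 was at -0.18 ± 0.28. YOL160W was at -1.56, -0.85, -1.47 and -3.67, with array 4 far below the others.

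At the high end stood YNR064C, an epoxide hydrolase gene, at 2.23, 1.65, 1.58 and 3.13, a mean of 2.15 ± 0.71 and the highest of the 443. ATP15, a subunit of the mitochondrial ATP synthase, was at 1.73, 1.57, 2.40 and 1.80, a mean of 1.87 ± 0.36. IML1, a subunit of the complex that restrains TORC1 when amino acids are scarce, was at 1.73, 1.12, 1.37 and 1.31, a mean of 1.38 ± 0.25. YLL053C and AQY2, neighbouring pieces of an aquaporin gene that is interrupted in the reference strain, were higher together at 1.45 ± 0.56 and 1.23 ± 0.53, both with their highest value on array 4. AMF1, an ammonium transporter with values on 3 arrays, was at 1.86, 2.24 and 1.84. Over all 443 probes, the 114 listed genes had a standard deviation of 1.02 and the 329 others 0.74.

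**Figure D3:**
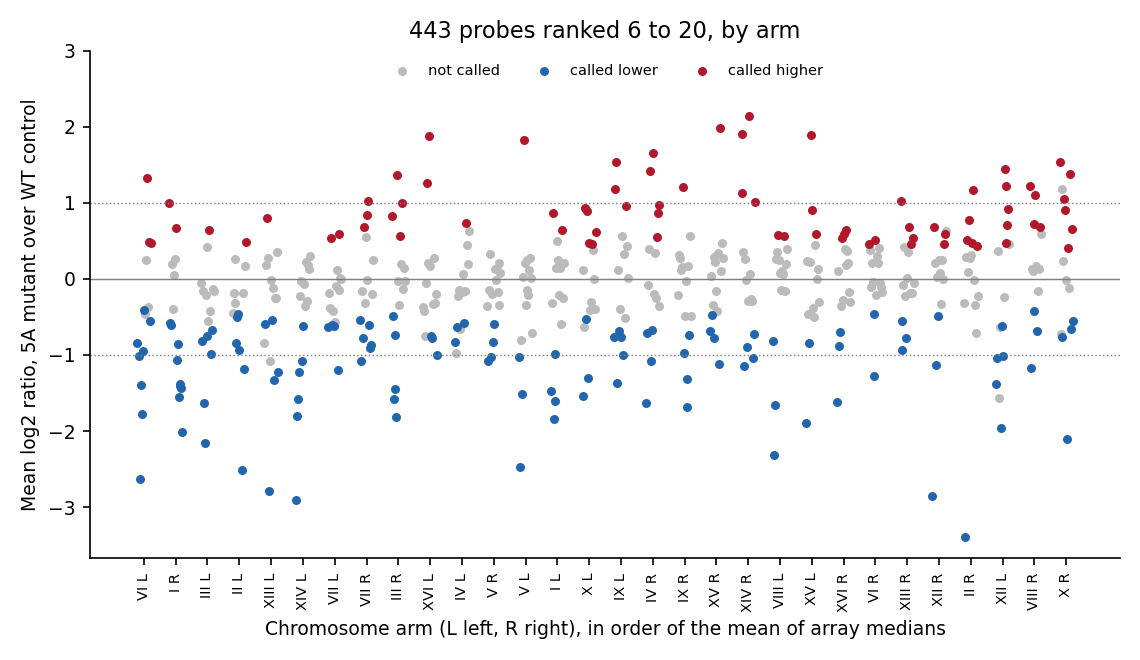
Mean log2 ratio (vertical axis) of each of the 443 probes in ranks 6 to 20, by chromosome arm from the lowest to the highest mean of the 4 array medians (horizontal axis), with ranks running from left to right within an arm and calls by limma in colour. Dotted lines mark 2-fold at 1 and -1, past which 29 and 61 probes lie, and 3 arms have no probe at or below -1.

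Compared by arm, 21 of 30 arms had a median of probe means below 0. Taken on each array, the arm median was below 0 on all 4 arrays in 11 arms, above 0 on all in 1 arm and on both sides of 0 in 18. By the mean of the array medians, the left arm of chromosome VI was the lowest, at -0.85, -0.31, -0.87 and -0.82 on arrays 1 to 4, a mean of -0.72 ± 0.27 (SD, n = 4). The right arm of chromosome I followed at -0.81, -0.42, -0.70 and -0.62, a mean of -0.64 ± 0.16, and the left arm of chromosome III at -0.44, -0.10, -0.46 and -0.68, a mean of -0.42 ± 0.24. By the same measure the right arm of chromosome X was the highest, at 0.15, 0.0031, 0.39 and 0.21, a mean of 0.19 ± 0.16. Next to it came the right arm of chromosome VIII at 0.10 ± 0.15 and the left arm of chromosome XII at 0.10 ± 0.21. No neighbours in this order were apart on all arrays: in each of the 29 neighbouring pairs the array values overlapped. The lowest and the highest arm did not overlap. The order depended on the measure: by the median of probe means, the right arm of chromosome I was the lowest at -0.61, before the left arm of chromosome VI at -0.51, and the right arm of chromosome II was the highest at 0.27, before the right arm of chromosome X at 0.24. For 5 arms the median of probe means and the mean of array medians had opposite signs, the widest case being the left arm of chromosome XII with -0.24 and 0.10.

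**Figure D4:**
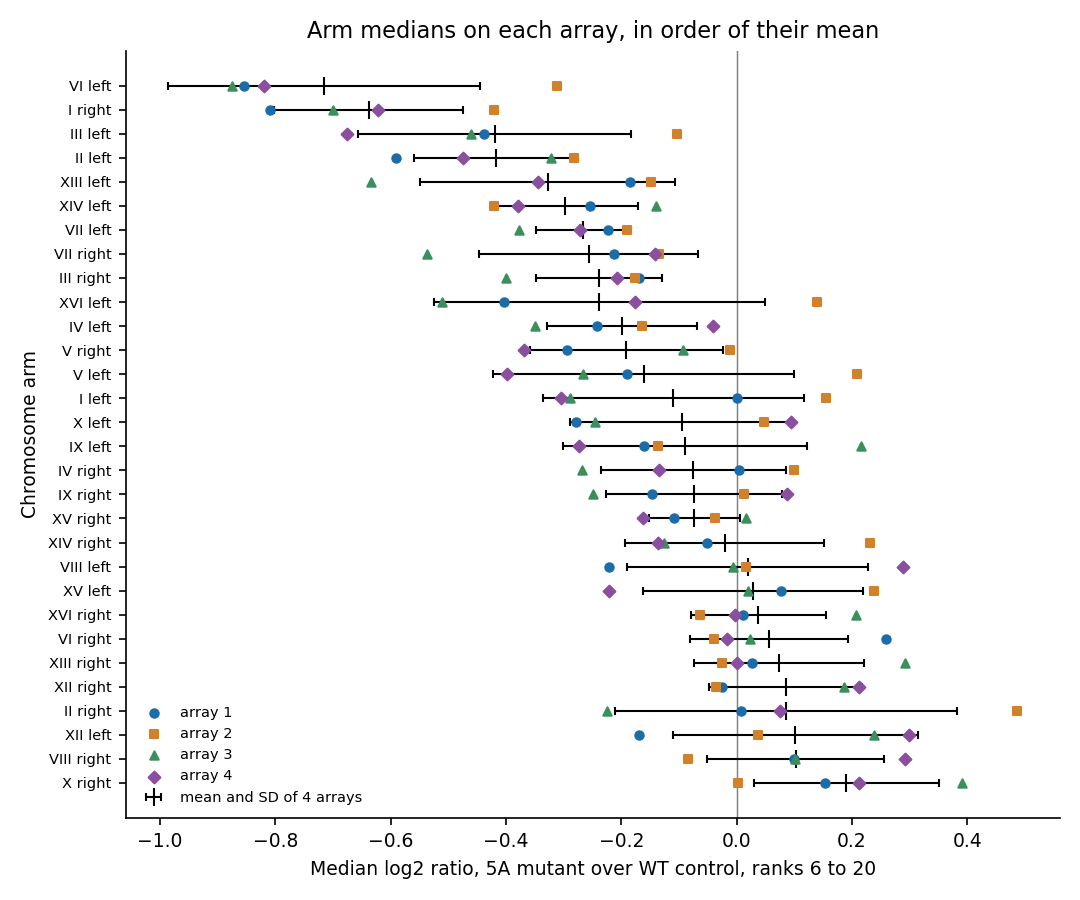
Median log2 ratio of the 5A mutant over the control in ranks 6 to 20 (horizontal axis) for each chromosome arm (vertical axis), on each array (coloured symbols) with the mean and SD of the 4 arrays (black). The mean runs from -0.72 on the left arm of chromosome VI to 0.19 on the right arm of chromosome X, and the array values of neighbouring arms overlap throughout.

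Against the rest of its own arm, the arm median in these ranks was lower on all 4 arrays for 10 arms and higher on all for 3. The difference was -0.76 ± 0.33 on the left arm of chromosome VI, -0.47 ± 0.13 on the left arm of chromosome II and 0.29 ± 0.18 on the right arm of chromosome VI, 1 of the 3. On the right arm of chromosome X the ranks nearer to the end were high as well: its ranks 1 to 5 had a median of 0.56, the only one of 30 arms above 0. In 25 of 30 arms ranks 1 to 5 were below ranks 6 to 20. The arms of chromosome XI are not part of the 443. There, ranks 6 to 20 had medians of 0.77 on the left arm and 0.85 on the right, and the rest of the arms 0.89 and 0.90. On the arrays, these ranks differed from the rest of the arm by -0.0016 ± 0.16 on the left and 0.041 ± 0.13 on the right.

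Some low probes sat side by side, although the link between neighbours was weak. Between neighbours in rank the mean ratios correlated with r = 0.21 over 410 pairs, and with r = 0.17 after the arm median was taken off. Ranks 21 to 40 gave r = 0.12 over 552 pairs, and all probes beyond rank 20 gave r = 0.096 over 5036 pairs. Both neighbours were below 0 in 33.7% of the 410 pairs, where 56.7% of single probes were below 0. In ranks 21 to 40 both were below 0 in 23.6% of pairs, where 48.4% of single probes were below 0. Beyond rank 20 both were below 0 in 26.3% of pairs. A share of pairs depends on the share of single probes below 0, so nothing is read from these pair shares. Neighbours share the array, and their ORFs can overlap, so the pairs are not independent. On 6 arms, 4 or more neighbours in a row had a mean at or below -0.5. Such runs were not counted at other ranks. The longest run was on the right arm of chromosome I, where ranks 14 to 20 had a median of -1.40. It held SWH1, an oxysterol-binding protein, at -1.55 ± 0.39, YAT1, a carnitine acetyltransferase, at -1.40 ± 0.85, MST28 and PRM9, membrane proteins of the DUP240 family, at -1.38 ± 0.31 and -1.43 ± 0.32, and YAR030C at -2.50, -0.82, -2.86 and -1.88. The gene table lists the name of another ORF of this run, YAR044W, as a synonym of SWH1, so these 2 probes may read the same gene. Directly on the telomere side of this run, FLO1 at rank 13 was at 0.66 ± 0.23.

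The run on the left arm of chromosome VI covered ranks 8 to 12 with DDI3, SNO3, SNZ3, THI5 and YFL057C and had a median of -1.39. On the left arm of chromosome XIV ranks 6 to 9 held SNO2, SNZ2, THI12 and AAD14, with a median of -1.69. RPD3, the histone deacetylase gene that comes next at rank 10, was at -0.23 ± 0.13 and not called. On the left arm of chromosome V, ranks 6 to 9 had a median of -1.27 and held YEL073C at -2.68, -1.65, -2.55 and -3.01 and DLD3, a lactate dehydrogenase, at -1.93, -0.15, -2.03 and -1.94. HXT13, among the highest probes, stood at rank 11 of the same arm. On the right arm of chromosome III ranks 8 to 11 ended with GIT1 and had a median of -1.51, and the run over ranks 9 to 13 on the left arm of chromosome XII, with a median of -1.01, held HSU1, JLP1 and YCT1. MHT1 and MMP1 at ranks 6 and 7 were separated from it by GTT2 at 0.37, which was not called. In that last run YLL059C had values on 2 arrays only, -2.69 and -0.45, and HSU1 ranged from -1.34 to 0.12, and neither was called.

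**Figure D5:**
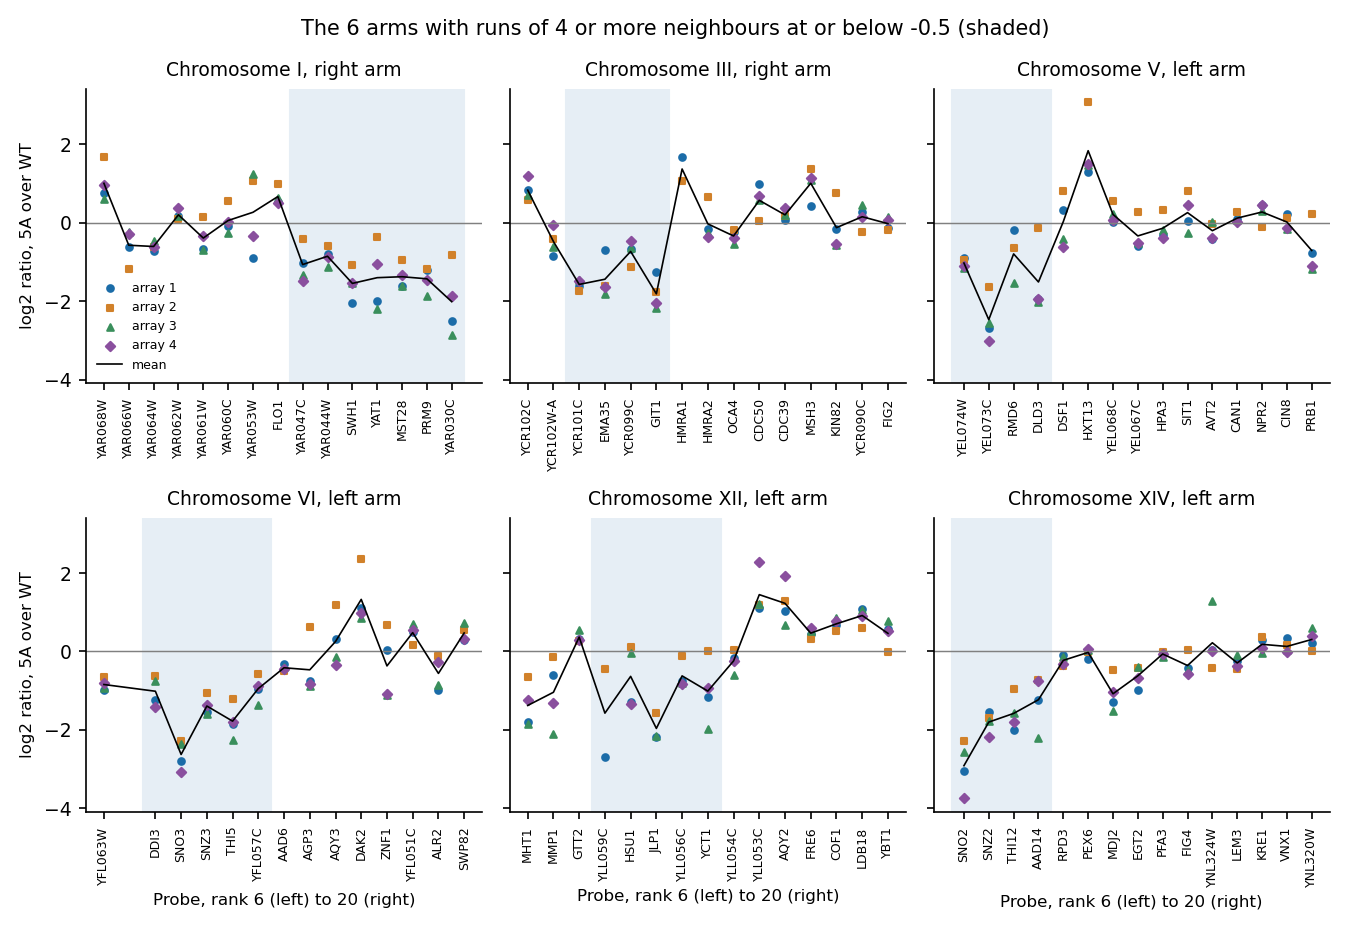
Log2 ratios on each array (symbols) and their mean (line) for the probes of ranks 6 to 20, from the end side at left to the centromere side at right, on the 6 arms with 4 or more neighbours at or below -0.5 (shaded). The run medians lie between -1.69 and -1.01, and single high genes such as HXT13 at 1.83 and DAK2 at 1.33 stand outside the shaded runs on the same arms.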

How the data were processed

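The authors scanned the arrays with GenePix, normalized them on the BASE server and deposited 1 log2 ratio per probe and array. Neither the log base nor the sign is written beside the values. Both were taken from the dye labels and from the counts of probes past 2-fold, which match the study's split into raised and lowered genes at that cut-off. The background correction and the normalization method are not given in the sources used here, spot intensities were not analysed here, and the number of arrays limits the precision.

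Log2 ratios were averaged per probe without further normalization and fitted with an intercept and eBayes in limma 3.58.1 (R 4.3.3), with Benjamini-Hochberg adjustment over all 6157 probes at a threshold of 0.05. On simulated data for these probes, 83% of 200 changed probes were recovered and 4.05% of calls were unchanged probes. The planted changes were all at least 2-fold, with independent noise. In the data, 40.5% of probes were called, and 117 of the calls in ranks 6 to 20 were under 2-fold. Such smaller changes were not simulated. Summaries and plots used Python 3.11.15, numpy 2.4.6, pandas 2.3.3 and matplotlib 3.10.9. Symbols came from the RefSeq R64 table, in which 5724 of 6210 probes matched. Its coordinates were not used, because the build of the array is not named.

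The ranks and the gene lists were chosen with earlier results of these data known, and the phosphate list was added after the values were seen. By rule, the text names the 12 lowest and 12 highest probes with 4 values, the lowest and highest probe of the 3 lowest and 3 highest arms, and the lowest and highest gene of each list. Other genes are named as list members, run members or rank neighbours and were chosen after their values were seen. Ty ORFs were identified from a hand-written list. Promoter motifs were not analysed here.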

Additional observations from a re-analysis of the deposited data

Results flagged for a closer look

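Sets of 4 array values were examined for named genes, for arm medians, and for the medians of rank groups and of all 443 probes. Of these 76 sets, 6 had 1 array far from the other 3, by a gap past Dixon's critical value. Chance alone gives this in about 1 of 20 independent sets, but the sets here overlap, since the medians include the named genes. DAK2 was at 2.36 on array 2 and between 0.86 and 1.11 on the others. HXT13 was at 3.06 on array 2 and at 1.30, 1.47 and 1.50 on the others. YLL053C was at 2.29 on array 4 and between 1.10 and 1.21 on the others. The median of the left arm of chromosome VI was -0.31 on array 2 and between -0.87 and -0.82 on the others. The median of the right arm of chromosome III was -0.40 on array 3 and between -0.21 and -0.17 on the others, and that of the right arm of chromosome XIII was 0.29 on array 3 and between -0.025 and 0.026 on the others. All 3 genes kept their sign on every array.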

How the results depend on the processing

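The counts of calls depended on single arrays. The number of probes called lower, 125, was between 79 and 165 with an array left out, 79 without array 1, and the number called higher, 79, was between 47 and 93, with 48, 47 and 51 without arrays 1, 3 and 4. Array weights gave 169 and 99. The median of ranks 11 to 15 moved from -0.049 to -0.16 with the median over arrays. That of ranks 16 to 20, 0.011, was 0.043 with the median over arrays, 0.12 with the families left out before ranking, 0.088 with each chromosome centred, and between 0.019 and 0.045 with an array left out. The difference from other probes in the medians of means, -0.11, shrank to -0.036 with the families left out before ranking. It shrank to -0.026 with the arms ranked again over matched probes only. The medians of ranks 6 to 10 and of all 443 probes stayed below 0 under every alternative run. Of 397 values of the 45 named genes, 376 kept their sign and call, 17 lost the call and 2 gained it. ZIP2, which was not called, changed sign in the remaining 2, from 0.12 to -0.22 with the median over arrays and to -0.23 without array 3. With 1 array left out it ran from -0.23 to 0.29. The calls lost were those of ISC10, HMLALPHA2, YOR1, ZRT1, PRD1 and SAM4, mostly with an array left out. The causes were not tested. Each array holds both strains, so every ratio is already a comparison within an array. With 1 group of arrays, no further pairing was made.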
